A study of Bos taurus with 6 samples.

Results

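The miR-200 family and miR-205 are microRNAs (miRNAs) best known from epithelial cells, and their levels were examined in cultured bovine granulosa cells. The 6 mature miRNAs of interest were taken by name: bta-miR-200a, bta-miR-200b, bta-miR-200c, bta-miR-141, bta-miR-429 and bta-miR-205. All of them were among the 1028 miRNAs listed in each library. Granulosa cells are the follicular cells around the oocyte. Here they were aspirated from slaughterhouse ovaries, from small antral follicles of 3 to 6 mm, and grown for 24 h in medium with serum depleted of exosomes. The cells were then left at 37 °C (control) or moved to 42 °C (heat stress, HS) for another 24 h. Each group had 3 libraries described as biological replicates and numbered 1 to 3. The number of animals behind a replicate is not given in the sources used here, and the cultures were of bulk cells, so a level is an average over whatever cell types a culture held.

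The miR-200 family is a set of repressors of the transcription factors ZEB1 and ZEB2, which in turn silence E-cadherin and other epithelial genes. ZEB1 and ZEB2 repress the miR-200 genes, so that epithelial cells typically hold much miR-200 and mesenchymal cells little. The family has 2 seeds, the short stretch that pairs with target mRNAs: miR-200b, miR-200c and miR-429 share one, and miR-200a and miR-141 the other. miR-205 belongs to another family, marks stratified and glandular epithelia, and also represses ZEB1 and ZEB2.

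The genes lie in separate clusters. By RefSeq's gene table for ARS-UCD2.0, MIR429, MIR200A and MIR200B follow each other between TTLL10 and C16H1orf159, with no other annotated gene over them. MIR141 and MIR200C lie side by side before PTPN6, both within the long noncoding RNA gene LOC112446758. MIR205 stands alone between CAMK1G and the long noncoding RNA gene LOC104974529. The reads were mapped to an older assembly, UMD3.1, so no positions are given.

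The libraries held 2076239 to 4590971 reads assigned to miRNAs, and control replicate 1 was the shallowest. Levels are normalised CPM (reads scaled to a common library total), with library sizes adjusted by TMM, a trimmed mean of log ratios between libraries. One read is counted per molecule whatever its length, so levels of different miRNAs can be set side by side, although the efficiency with which each is captured in a library was not measured. Of 6 gonadal miRNAs listed here, bta-miR-202, largely restricted to gonads, had the highest mean, 2034 normalised CPM, and ranked 51 of the 1028. The lowest of that list, bta-miR-383, was at 8.33, and such a list does not define granulosa cells on its own. Of miRNAs abundant in red blood cells, bta-miR-451 and bta-miR-144 were at 1.26 and 0.117 normalised CPM on average. bta-miR-486 was at 36.9, close to bta-miR-200b, the most abundant of the 6 miRNAs of interest.

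Cultured granulosa cells held miR-200b and miR-200a at low levels, and little of the other 4. A miRNA was taken as detected in a group when it reached 10 normalised CPM in at least 2 of the 3 libraries. By this rule bta-miR-200b and bta-miR-200a passed in either group, and the other 4 in neither. Among all listed miRNAs, 26.7% were detected in control and 26.6% in HS cells. Reads of bta-miR-200a, bta-miR-200b, bta-miR-200c and bta-miR-429 were found in 6 of 6 libraries, and those of bta-miR-141 and bta-miR-205 in all but 1 each.

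bta-miR-200b was the most abundant of the 6. Control replicates 1, 2 and 3 held 38.1, 45.2 and 30.9 normalised CPM of it. HS replicates 1, 2 and 3 held 29.2, 43.5 and 23.8. HS replicate 3 was the lowest and control replicate 2 the highest, and the groups overlapped. The values rested on 78 to 208 reads per library.

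bta-miR-200a, its neighbour in the same cluster with the other seed, had 13.2, 35.6 and 26.2 normalised CPM in control cells. In HS cells it had 27.9, 28.3 and 20. Both the highest and the lowest value belonged to control libraries, and the HS libraries lay between them. The low value, in control replicate 1, rested on 27 reads, for which counting error alone allows 8.69 to 19.2 normalised CPM (95% exact Poisson interval).

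bta-miR-429, the third miRNA of that cluster, was at 4.88, 10.4 and 4.74 normalised CPM without heat and at 4.98, 6.25 and 2.98 after it. Only control replicate 2 exceeded 10, and the other 2 control libraries lay inside the range of the HS libraries.

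The cluster of MIR141 and MIR200C was lower still. bta-miR-200c measured 4.39, 3.91 and 1.95 normalised CPM in the control libraries against 3.65, 7.34 and 2.13 in the HS libraries, with HS replicate 2 above all others. bta-miR-141, which has the seed of miR-200a, was at 0, 0.434 and 1.39 in the control libraries, against 0.332, 1.63 and 0.851 after HS. These were 0, 2 and 5 reads in control and 1, 6 and 4 reads in HS libraries, so bta-miR-141 exceeded the counting floor of 3 reads in 3 of 6 libraries.

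bta-miR-205 was near the floor too. It had 1.46, 1.303 and 0 normalised CPM in control cells, from 3, 6 and 0 reads. In HS cells it had 0.664, 1.90 and 2.13, from 2, 7 and 10 reads. The library without a read, control replicate 3, held 3570382 reads in all, where 3 reads correspond to 0.836 normalised CPM and the 95% exact Poisson interval of 0 reads reaches 1.03. Depending on the library, 3 reads correspond to 0.639 to 1.46 normalised CPM. All such intervals and floors cover counting error only.

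**Figure D1:**
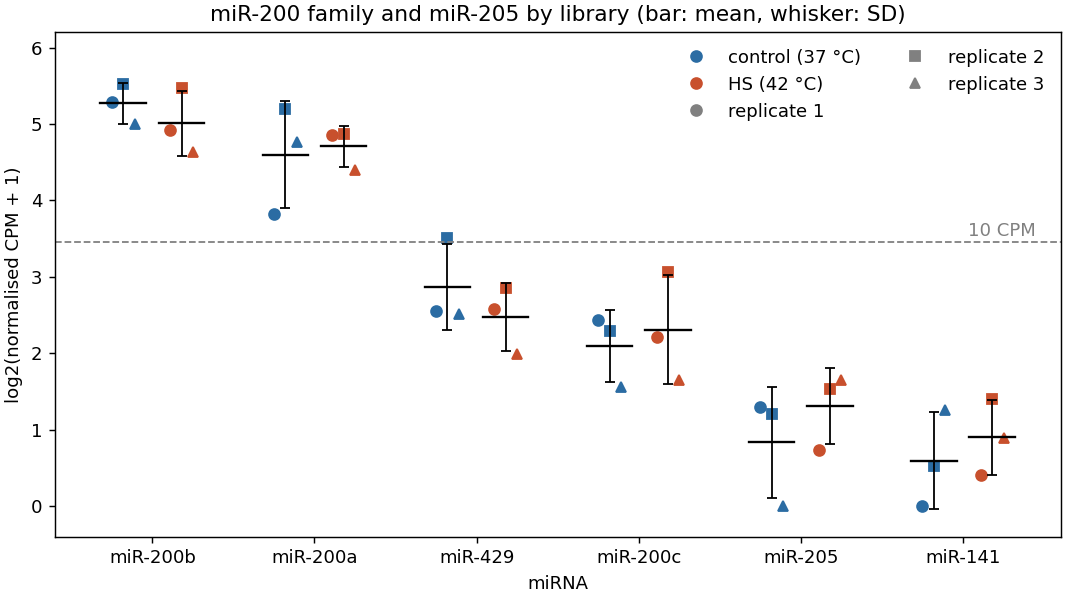
Level of each of the 6 miRNAs in each library, as log2(normalised CPM + 1) on the vertical axis, with control libraries in blue, HS libraries in orange, replicates 1 to 3 as circles, squares and triangles, the group mean as a bar and the SD (n = 3) as whiskers. miR-200b and miR-200a lie above the dashed line at 10 normalised CPM in 6 of 6 libraries, miR-429 in 1, and control and HS points overlap for each miRNA.

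By mean level over the 6 libraries the order was bta-miR-200b (35.1 normalised CPM, rank 208 of the 1028), bta-miR-200a (25.2, rank 225), bta-miR-429 (5.71, rank 305), bta-miR-200c (3.90, rank 332), bta-miR-205 (1.24, rank 432) and bta-miR-141 (0.774, rank 473). Of the 1028 ranked, only 755 had a read in any library. Neighbours in this order mostly overlapped. The exception was the step from bta-miR-200a to bta-miR-429, a 4.41-fold difference of means at which the lowest bta-miR-200a value (13.2) was above the highest bta-miR-429 value (10.4). Within libraries the order was steadier than the ranges. bta-miR-200b was above bta-miR-200a in 6 of 6 libraries, by 1.05 to 2.89 times. bta-miR-429 exceeded bta-miR-200c, bta-miR-200c exceeded bta-miR-205, and bta-miR-205 exceeded bta-miR-141 in 5 of 6 libraries each.

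The family as a whole came almost entirely from the cluster of MIR429, MIR200A and MIR200B. Summed over its 5 miRNAs, the family reached 60.5, 95.6 and 65.2 normalised CPM in the control libraries. In the HS libraries it reached 66.0, 87.0 and 49.8. HS replicate 3 was the lowest, and the highest values were those of replicate 2 in both groups. That cluster took 94.4% ± 1.43 (SD, n = 3) of the family's reads in control cells, and 92.6% ± 2.49 (SD, n = 3) after HS. By seed, the sum of miR-200b, miR-200c and miR-429 was 48.2 ± 11 normalised CPM (SD, n = 3) in control cells, against 41.3 ± 14.4 (SD, n = 3) in HS cells. The sum of miR-200a and miR-141 was 25.6 ± 11.6 and 26.3 ± 4.81 in the same order, so that neither seed group differed by more than its spread.

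**Figure D2:**
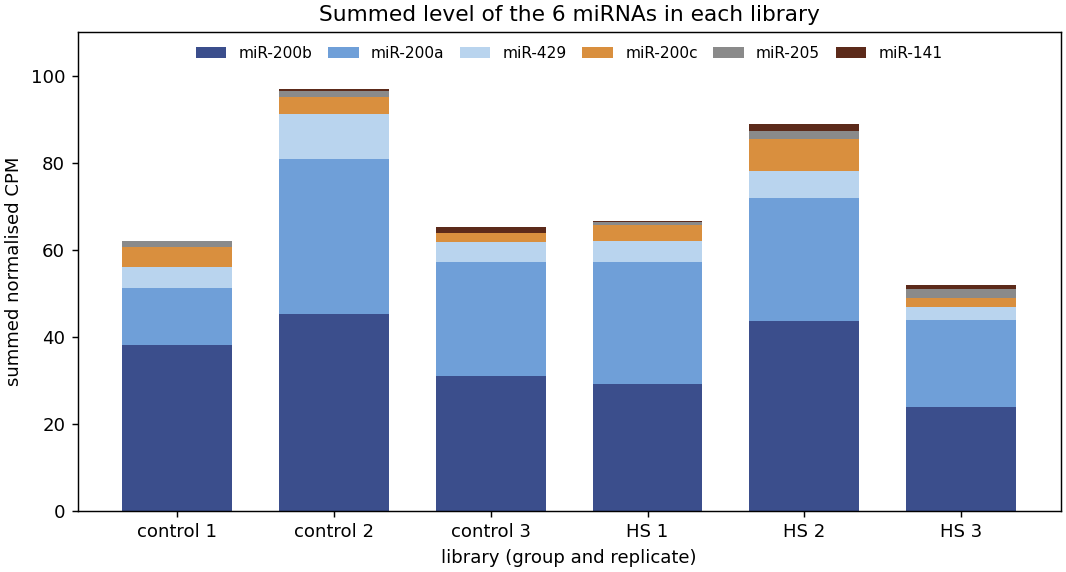
Summed normalised CPM of the 6 miRNAs in each of the 6 libraries (vertical axis), with 1 bar per library stacked by miRNA. miR-200b and miR-200a fill most of each bar, and replicate 2 gives the tallest bar in both groups, at 96.9 in control and 88.9 in HS cells.

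miR-200a, miR-200b and miR-429 come from neighbouring genes, and the share of each in their summed reads was compared across libraries. miR-200a took 23.5% of these reads in control replicate 1 (27 of 115, 95% Wilson interval 16.7 to 32.0). In control replicates 2 and 3 it took 39.0% (34.5 to 43.8) and 42.3% (36.0 to 48.9). In HS replicates 1, 2 and 3 the share was 44.9% (38.0 to 52.1), 36.2% (30.9 to 42.0) and 42.7% (36.4 to 49.3). The interval of control replicate 1 lay below those of 4 of the 5 other libraries and overlapped that of HS replicate 2. By group the share was 35.0% ± 10.1 (SD, n = 3) in control cells and 41.3% ± 4.52 (SD, n = 3) with HS, so that the groups overlapped. miR-429 took 6.36% to 11.4% of the reads across the 6 libraries.

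**Figure D3:**
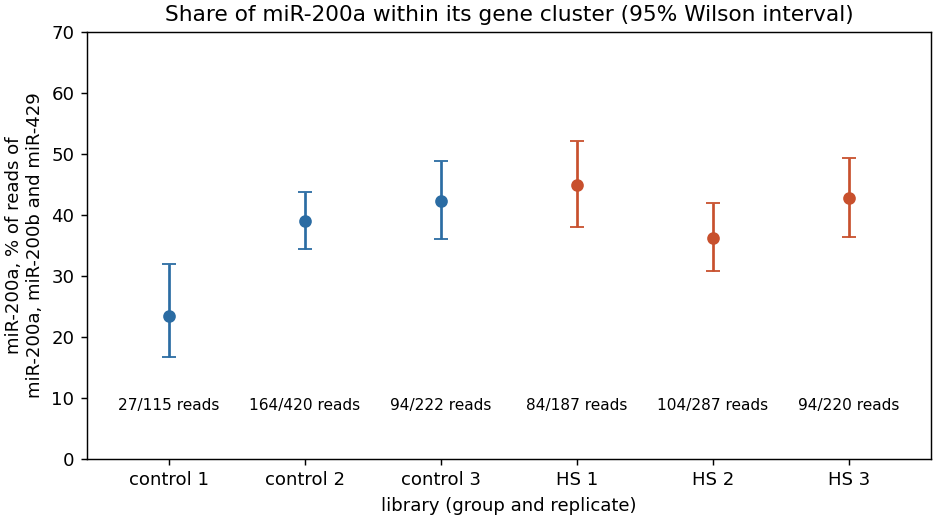
Share of miR-200a, in percent, among the reads of miR-200a, miR-200b and miR-429 in each library, with 95% Wilson intervals as bars and the read counts printed below. Control replicate 1 is the lowest at 23.5%, and the 5 other libraries lie between 36.2% and 44.9%.

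Whether HS altered these levels was tested with limma across the 365 miRNAs that passed a filter on low reads. All but bta-miR-141 and bta-miR-205 passed it, which left 4. None of the 4 reached an adjusted p of 0.2 or less, with or without a log2 fold change beyond 1 in either direction, nor an unadjusted p under 0.05. Over all tested miRNAs 7.12% reached that adjusted p, 3.01% reached it together with that fold change, 2.19% had an adjusted p under 0.05, and 14.5% had an unadjusted p under 0.05. Control and HS values overlapped for all 6 miRNAs, of which 4 were tested. Among all tested miRNAs 20.0% had separate groups, and 4 miRNAs are too few to differ from that share. With edgeR's quasi-likelihood test on the recovered reads the numbers were also 0 at each threshold.

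The intervals of the differences were wide. For bta-miR-200b the log2 fold change of HS relative to control, on the log2(value + 1) scale, was -0.26 ± 0.269 (SE, limma adjusted p = 0.792), with a 95% interval from -0.90 to 0.38. On that scale it spans 0.536 to 1.297 times the control level. The estimate moved to -0.075 without HS replicate 3 and to -0.50 without HS replicate 2. bta-miR-200a was estimated at 0.11 ± 0.365 on the same scale (limma adjusted p = 0.959), with an interval from -0.76 to 0.98. Its sign was not stable, since upper quartile scaling, edgeR without a replicate block and DESeq2 gave values from -0.069 to -0.0011 with all libraries kept. In those settings the median of all miRNAs fitted was also below 0, from -0.18 to -0.020, and bta-miR-200a lay above it in each. Without control replicate 1 bta-miR-200a was at -0.27 (limma adjusted p = 0.579, the lowest among its 22 alternatives, which reached up to 0.998).

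bta-miR-429 was estimated at -0.39 ± 0.362 (limma adjusted p = 0.744), with an interval from -1.24 to 0.47. Without control replicate 2, its highest library, it was -0.061. For bta-miR-200c it was 0.21 ± 0.417 (limma adjusted p = 0.939), with an interval from -0.78 to 1.20. Its sign turned without control replicate 3, to -0.056, and without HS replicate 2, to -0.16. The interval of bta-miR-429 thus included a log2 change of -1 and that of bta-miR-200c a log2 change of 1. Those of bta-miR-200b and bta-miR-200a included neither on the log2(value + 1) scale. However, the interval of bta-miR-200a reached 0.98, close to 1, and that scale understates changes of low miRNAs.

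**Figure D4:**
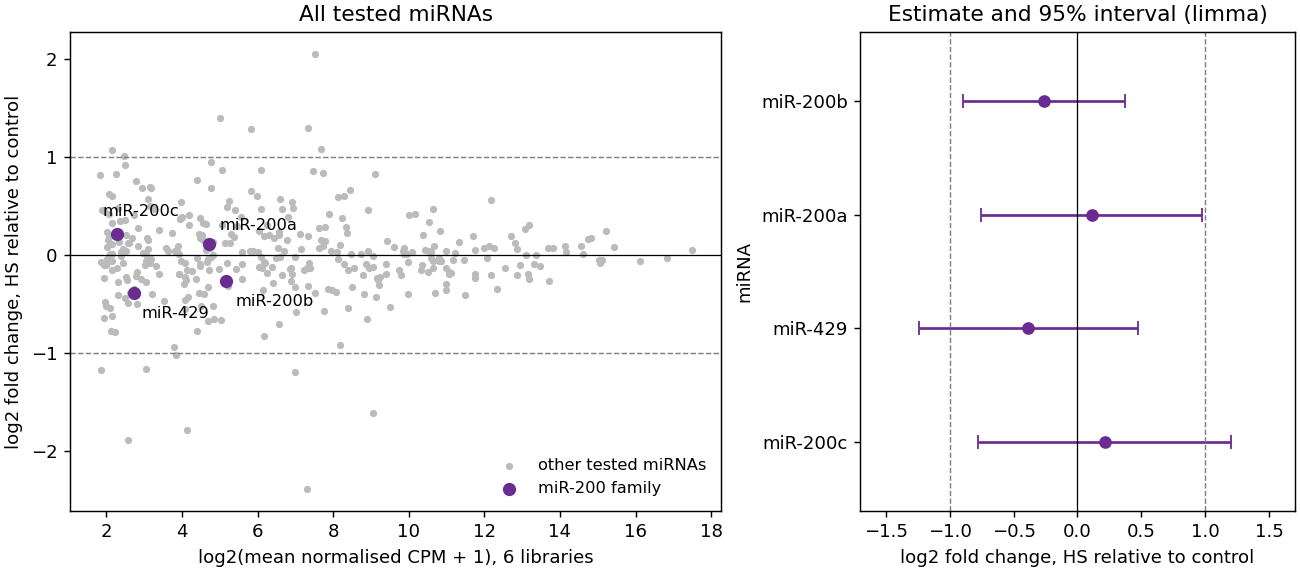
Left, log2 fold change of HS relative to control against log2(mean normalised CPM + 1) for the 365 tested miRNAs (grey) with the 4 tested miR-200 miRNAs in purple. Right, the same 4 fold changes with 95% limma intervals, each of which includes 0, with dashed lines at log2 fold changes of -1 and 1.

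On the log2(value + 1) scale all 4 estimates were under 0.5 in size, as for 299 of the 365 tested miRNAs (81.9%), and their median was -0.076 against -0.002 over all tested miRNAs. On the recovered reads bta-miR-429 was beyond 0.5, at -0.57 with edgeR's quasi-likelihood test (adjusted p = 0.665, and 0.425 to 0.973 over its alternatives). The log2 of the summed family level was 0.13 lower in HS than in control cells, where the SD between replicates was 0.349 in control and 0.396 in HS cells.

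bta-miR-141 and bta-miR-205 were too low for the filter, and without it their limma adjusted p-values were 0.833 and 0.786. Pooled over libraries, bta-miR-141 had 7 reads in control and 11 in HS cells, a ratio of HS to control of 1.41 at equal depth (95% exact interval 0.5002 to 4.30). bta-miR-205 had 9 and 19 reads, a ratio of 1.90 (0.818 to 4.76). No difference of either was detectable at this depth.

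Counting error made up part of the spread between replicates. For bta-miR-200b the coefficient of variation between replicates was 18.7% in control and 31.6% in HS cells, where counting alone gives 9.28% and 9.20%. For bta-miR-200a it was 45.1% and 18.4%, against 11.5% and 10.4%. For bta-miR-200c it was 37.9% and 61.3%, against 31.0% and 24.95%. The observed value was above the counting value for each of the 6 miRNAs in both groups. Taken on reads pooled within groups, bta-miR-200b had a ratio of HS to control of 0.815 (0.705 to 0.943) and bta-miR-429 of 0.623 (0.429 to 0.900). Both intervals exclude 1, but they leave out the spread between replicates, which limma includes.

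Replicate 2 had the highest value in both groups for bta-miR-200b, bta-miR-200a and bta-miR-429, though not for bta-miR-200c, where control replicate 1 was the highest of its group. For bta-miR-200a the step in HS cells was small, 28.3 in replicate 2 against 27.9 in replicate 1, with overlapping counting intervals. To find the miRNAs with the most similar pattern, log2(value + 1) profiles over the 6 libraries were centred and compared by their root mean square difference. The closest to bta-miR-200b were bta-miR-383 (0.0855 log2 units), bta-miR-10b (0.143) and bta-miR-874 (0.173), where its own spread around its mean was 0.320. bta-miR-383 is also one of the gonadal miRNAs listed here, and bta-miR-10b one of the mesenchymal ones. However, bta-miR-383 was low, at 8.33 normalised CPM on average. A closest profile is also the smallest of many distances over 6 libraries, with no allowance for counting error. Whether similar profiles have a shared origin was not tested. bta-miR-10b was also the closest to bta-miR-429 (0.177), followed by bta-miR-200b (0.240) and bta-miR-383 (0.264). bta-miR-200a was closest to bta-miR-6522 (0.195), bta-miR-340 (0.254) and bta-miR-34c (0.265), and lay farther from its cluster neighbours bta-miR-429 (0.393) and bta-miR-200b (0.464). Those distances rested on control replicate 1. Without it the distance of bta-miR-200a to bta-miR-200b was 0.177 and that to bta-miR-429 was 0.254, while that of bta-miR-200b to bta-miR-429 was 0.229. Without control replicate 2 that last distance was 0.139. The nearest to bta-miR-200c were bta-miR-2285at (0.311), bta-miR-652 (0.312) and bta-miR-10b (0.325).

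Other miRNAs often named with epithelia covered a wide range of levels, most of them above miR-200b. Of 9 on the list, bta-miR-203 was not analysed here, and the other 8 were tested, with 3 estimates above 0 in HS cells, 5 below 0 and none at an adjusted p of at most 0.2 (limma, 0.418 to 0.969). bta-miR-31, which is abundant in keratinocytes among other cells, held 33998 normalised CPM on average and ranked 7 of the 1028. bta-miR-183, bta-miR-182 and bta-miR-96, processed from a shared transcript in sensory and other epithelia, ranged over the 6 libraries from 87.3 to 639, 119 to 837 and 11.7 to 94.1 normalised CPM. For bta-miR-183 the control values were 99.6, 189 and 639 and the HS values 87.3, 133 and 473, so that replicate 3 was the highest in both groups, while the miR-200 sum was highest in replicate 2. bta-miR-375, an endocrine and epithelial miRNA, averaged 5.005 normalised CPM, close to bta-miR-429.

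Summed over each list, markers of other cell types, and those of gonadal cells, were above the miR-200 family in each library. The 8 mesenchymal miRNAs summed to 5388 to 8650 normalised CPM in control and 5172 to 7708 in HS libraries, or 93.0 times the family on average. Most of this was bta-miR-10b (4625), with bta-miR-199a-3p at 1471, but bta-miR-143 and bta-miR-145, defining miRNAs of smooth muscle and fibroblasts, were at 64.5 and 9.49. The 7 blood cell miRNAs summed to 730 to 895 in control and 677 to 800 in HS libraries, led by bta-miR-142-5p (352), and bta-miR-144 was at 0 in 3 libraries. The endothelial bta-miR-126-3p and bta-miR-126-5p together had 228 to 352 in control and 131 to 265 in HS libraries, led by bta-miR-126-3p (214). The 6 gonadal miRNAs summed to 5310 to 6470 in control and 5256 to 6035 in HS libraries. By mean over all libraries bta-miR-202 (2034) led them narrowly before bta-miR-378 (2024). In HS cells bta-miR-378 was the higher, at 2053 against 1795.

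None of these lists held a miRNA with an adjusted p of at most 0.2 in limma, among 8 mesenchymal, 5 blood cell, 2 endothelial and 6 gonadal miRNAs tested. The lowest adjusted p-values were 0.463, 0.418, 0.418 and 0.570. The median log2 fold changes of the lists were 0.06, -0.14, -0.62 and 0.03 in the same order, and -0.11 for the other epithelial miRNAs, against -0.002 over all tested miRNAs. Separate control and HS values were found for 3 of the 29 list miRNAs tested, against 20.0% of all tested miRNAs. They were bta-miR-375, bta-miR-194 and bta-miR-199a-5p. In these bulk cultures, fewer cells of a type and less miRNA per cell cannot be told apart. The part of other cell types in the levels of the miR-200 family was not tested.

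**Figure D5:**
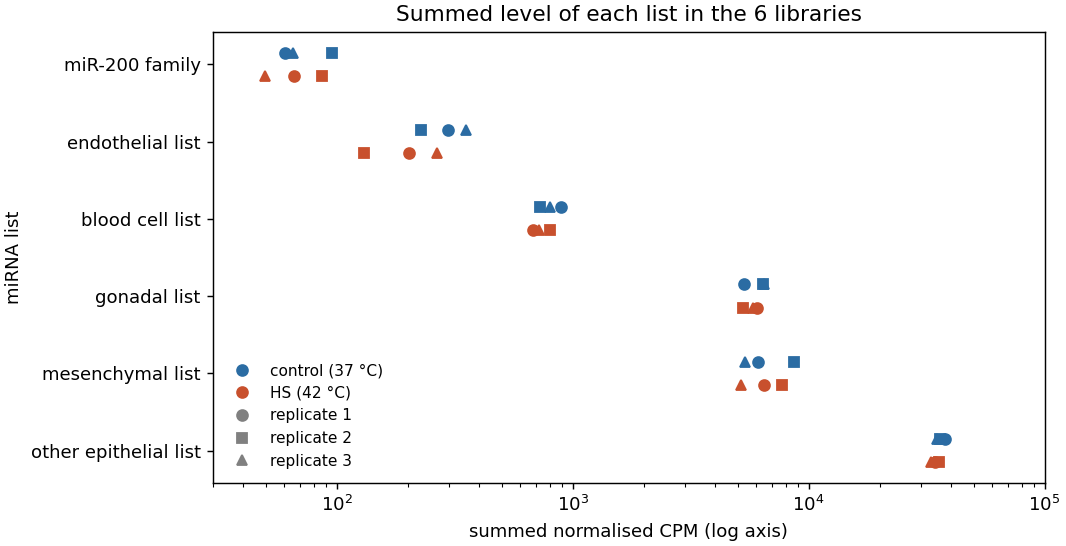
Summed normalised CPM of the miR-200 family and of each list of marker miRNAs in the 6 libraries (horizontal log axis), with control libraries in blue, HS libraries in orange and replicates 1 to 3 as circles, squares and triangles. The miR-200 family, at 49.8 to 95.6, lies below the endothelial list, whose lowest library is at 131, and far below the other lists.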

How the data were processed

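Each small RNA library started from 100 ng of RNA, carried unique molecular identifiers (UMIs) on its adapters and went through 16 PCR cycles. According to the study's methods and the submitters' processing notes, adapters were removed with cutadapt 1.11, reads with the same UMI were merged, and Bowtie2 2.2.2 placed them on the bovine genome UMD3.1. The authors then counted miRBase miRNAs and scaled the counts by TMM in edgeR. The deposited signal is TMM-normalised CPM, and 100% of values were whole multiples of 1 read per library (tolerance 0.01 of a read). How reads that fit several related miRNAs were assigned is not given in the sources used here, so levels within the miR-200 family are uncertain to that extent, as are the 2 miRNAs inside LOC112446758.

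All 365 miRNAs past edgeR's filterByExpr (edgeR 4.0.16) on the recovered reads were tested on log2(deposited value + 1) in limma 3.58.1 (R 4.3.3, empirical Bayes with a trend), with Benjamini-Hochberg adjustment over all of them. This scale understates changes of low miRNAs. P-values measure only the spread between these libraries, since their cultures' origin in separate animals is not given in the sources used here. Named miRNAs were the 6 of interest, the 3 closest profiles of each one tested, and of each marker list the most abundant and any with an adjusted p of at most 0.2. Further list members (miR-451, miR-144, miR-486, miR-183, miR-182, miR-96, miR-375, miR-194, miR-199a-3p, miR-199a-5p, miR-143, miR-145, miR-126-5p and miR-378) were chosen for display after their values were seen. The members and lists were chosen with earlier results of these data known. Matching by sequence was not done, and all 6 miRNAs matched a RefSeq gene by name. Intervals used scipy 1.17.1. Alternatives were other scalings, filters, pseudocounts, tests (DESeq2 1.42.0 among them), blocking by replicate number, and leaving out 1 library at a time.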

Additional observations from a re-analysis of the deposited data

How the results depend on the processing

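No miRNA of the 6 passed an adjusted p of 0.2 or 0.05, nor an unadjusted p of 0.05, in the alternatives in which it had a value. These were 22 for bta-miR-200a and bta-miR-200b, 21 for bta-miR-200c and bta-miR-429, and 2, those with no filter, for bta-miR-141 and bta-miR-205. They include the edgeR quasi-likelihood and likelihood ratio tests and the DESeq2 Wald test, in which bta-miR-200c had no adjusted p. Adjusted p-values of the 4 that passed the filter ran from 0.425 to 0.998. With the replicate number as a block, bta-miR-200b and bta-miR-429 had limma adjusted p-values of 0.527 and 0.504, and the number of these miRNAs called stayed at 0. The study's methods divide plates between the temperatures but do not say that equal numbers mark the same cells, and the main test had no block. Deviations of same-numbered libraries correlated at 0.421, -0.117 and 0.616. Differences shared by such libraries, where present, stay in the error of the main test. bta-miR-200b was lower in HS than in control cells at each number, while for the others tested the direction differed between numbers.

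Of 86 refitted fold changes, 78 kept their sign and 8 did not. bta-miR-200a was at -0.069 with upper quartile factors, which moved the median of all tested miRNAs to -0.18. It was at -0.0068 with the edgeR quasi-likelihood test, -0.0051 with that test and no filter, -0.0018 with the likelihood ratio test and -0.0011 with DESeq2. In the same order, the median of all miRNAs fitted was -0.020, -0.060, -0.023 and -0.021. In each of these settings bta-miR-200a lay above the median, also with upper quartile factors. The cause of the sign changes was not tested. Leaving out 1 library gave -0.27 to 0.41 for bta-miR-200a, -0.16 to 0.54 for bta-miR-200c, -0.50 to -0.075 for bta-miR-200b and -0.58 to -0.061 for bta-miR-429. On recovered reads bta-miR-429 was at -0.57 to -0.54 with edgeR, voom and DESeq2 without a block. The log2 ratio of the summed family ran from -0.31 to 0.032, and from -0.33 to 0.068 with 1 library left out. Among distances between profiles, whose refits without 1 library were chosen after seeing the data, that of bta-miR-200a and bta-miR-200b ran from 0.177 to 0.505.

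Detection followed its minimum: 5 of the 6 were detected in control and 5 in HS cells at 1 normalised CPM, and 0 in each at 100. The number of all miRNAs with an adjusted p under 0.05, 8 here, was 5 with upper quartile factors, 14 with the likelihood ratio test and 21 with DESeq2, and 2 to 12 with 1 library left out. Depth limits bta-miR-141 and bta-miR-205, with 18 and 28 reads over the 6 libraries.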
